A study of Mus musculus with 14 samples.

Results

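The Bcl2 family decides at the mitochondrial surface whether a cell survives or dies. Survival proteins (Bcl2, Bcl2l1, which is Bcl-xL, and Mcl1) hold in check the pore formers Bax and Bak1, and BH3-only proteins (Bcl2l11, which is Bim, Bbc3, which is Puma, Pmaip1, which is Noxa, Bmf and Bid) relieve that hold or activate the pore formers. FoxO transcription factors are known to induce Bcl2l11 and Bbc3 in lymphoid and other blood cells, and Bcl2l11 is known for its part in the removal of self-reactive thymocytes. The 10 genes named above were the members, and every probe set annotated to 1 of them was taken in all 6 groups of samples. The annotation listed 30 probe sets for 9 of the 10 genes, out of 18193 genes with a probe set of their own. No Bax probe set was among them, so Bax was not analysed here. Bcl2 had 5 probe sets, Bcl2l1 4, Mcl1 6, Bcl2l11 5, Bmf 3, Bid 3, Bak1 2, and Bbc3 and Pmaip1 1 each.

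RNA of 14 mouse samples was measured on Affymetrix whole-genome expression arrays, each sample on its own array. Liver sinusoidal endothelial cells (LSEC) gave 3 Cre+ and 3 control samples, lung endothelial cells 2 Cre+ and 2 control samples, and thymus 2 Cre+ and 2 control samples. All mice were of the FVBn background and carried loxP-flanked alleles written Fk1 L/L, Fk2 L/L and Afx L/L, older names of Foxo1, Foxo3 and Foxo4. Cre+ samples came from mice with MxCre, a Cre transgene under an interferon-inducible promoter that is not limited to endothelial cells, and control samples came from MxCre- mice with the same floxed alleles. The labels give no age, no induction of Cre and no cell isolation method, and do not say that replicates are separate animals. The p-values therefore cover only how far these samples scatter, which may be technical.

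A level here is a quantile-normalized log2 value of a probe set, and a difference is a difference of log2 levels, Cre+ minus control unless stated. Levels of different probe sets are not set against each other, because each has its own binding strength. Names ending in _a_at mark probe sets that read several transcripts of 1 gene, and those ending in _s_at or _x_at may also read other genes. Of the 30 probe sets, 26 of 9 genes reached the limit of 6.38 in at least 1 tissue and were tested. The 4 dim ones, Bcl2l1 1426050_at, Bmf 1422995_at, Bmf 1458325_x_at and Bid 1447873_x_at, had highest tissue means between 5.54 and 6.16. A probe set passed where limma's Benjamini-Hochberg adjusted p over all 30820 tested probe sets was under 0.05.

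Promoter sequence is shown for Bcl2l11 and Bcl2, the genes with a passing probe set below, because Bcl2l11 is a known FoxO target, and the site alone is shown for Bbc3, another known FoxO target. RefSeq windows of 250 bases before to 50 bases after a start were given for 16 starts of 9 members (GRCm38.p6). The FoxO core GTAAACA, or TGTTTAC on the other strand, was found in 2 of the 16 windows, against 3.65% of 32851 windows of all genes. The first start of Bcl2l11 holds it on the gene's own strand, beginning 227 bases before the start, and the second start of Bbc3 holds it on the opposite strand, beginning 167 bases before. The Bcl2 window holds no match, which says only that these letters are not in it. The 250 bases before the start of Bcl2l11 lie at chr2:128125788-128126037 on the plus strand, those of Bcl2 at chr1:106714291-106714540 on the minus strand, and the Bbc3 site at chr7:16310084-16310110 on the plus strand, each printed 5′ to 3′ along its gene with the match in capitals.
Bcl2l11: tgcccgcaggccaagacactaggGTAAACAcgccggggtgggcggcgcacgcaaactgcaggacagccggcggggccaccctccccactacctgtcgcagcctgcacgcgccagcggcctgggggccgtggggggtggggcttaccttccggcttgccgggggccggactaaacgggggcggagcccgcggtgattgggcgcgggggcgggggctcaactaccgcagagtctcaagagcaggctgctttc
Bcl2: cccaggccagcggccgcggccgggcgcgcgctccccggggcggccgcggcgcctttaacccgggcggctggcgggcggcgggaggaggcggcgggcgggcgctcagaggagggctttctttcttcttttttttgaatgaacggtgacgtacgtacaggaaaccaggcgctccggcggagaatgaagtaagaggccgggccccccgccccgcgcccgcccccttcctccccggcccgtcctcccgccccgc
Bbc3: ctggcgggttTGTTTACaaacaatggg

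The floxed genes checked the labels. In LSEC all 3 Foxo1 probe sets passed, with differences of -3.56 to -0.93, as did 2 of 3 for Foxo3 and 1 of 2 for Foxo4. None passed in lung endothelial cells, where the Foxo1 differences ran from -1.29 to -0.51 and those of Foxo3 from 0.01 to 0.30. Of the 8 probe sets, 6 had an unadjusted p under 0.05 in limma there, 1 of them a Foxo3 probe set that was higher in Cre+. In thymus 2 of 3 for Foxo1 and 1 of 2 for Foxo4 fell while 1 of 3 for Foxo3 rose by 0.68. All 10 pan-endothelial markers were above 6.38 in LSEC and lung samples, and all 9 LSEC markers were in LSEC. The 6 lung endothelium markers averaged 8.19 to 8.21 in control lung and 8.39 to 8.63 in control LSEC. Their mean therefore did not set the lung samples apart. Cell type markers moved with genotype in LSEC. The mean level of 9 LSEC markers was 8.67 to 9.42 in Cre+ and 10.50 to 11.06 in control LSEC. That of 7 mast cell markers was 6.60 to 7.67 in Cre+ and 5.67 to 5.73 in control LSEC, with 6 of 7 and 2 of 7 above 6.38. The 10 pan-endothelial markers averaged 9.75 to 10.02 in Cre+ and 10.22 to 10.56 in control LSEC, and 6 lung endothelium markers 8.75 to 8.77 in Cre+ and 8.39 to 8.63 in control LSEC. Of this last list only Ednrb rose, with means of 12.50 in Cre+ and 10.65 in control LSEC, and every other marker had a slightly lower Cre+ mean. The 5 neutrophil markers averaged 6.18 to 7.97 in Cre+ and 5.18 to 5.73 in control LSEC. No marker of these lists stood at 0 in every sample of an LSEC group. The neutrophil marker Camp was near the floor, with means of 1.74 in Cre+ and 0.57 in control LSEC. Lung samples also held high levels of lung epithelium markers, 10.38 to 10.73 in Cre+ and 10.44 to 10.48 in control, and of fibroblast markers, 11.43 to 11.56 in Cre+ and 11.59 to 11.75 in control. Thymocyte markers averaged 11.18 to 11.38 in thymus and at most 6.29 in the other tissues. In such bulk samples, fewer cells of a type and less RNA per cell cannot be told apart.

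In LSEC, Bcl2 rose on 1 of its 5 probe sets and Bcl2l11 fell on 1 of its 5. These were the only 2 of 26 member probe sets that passed, against 4.28% of all probe sets tested (2.13% higher and 2.14% lower). At an unadjusted p under 0.05 in limma there were 6. The share of all probe sets at that looser limit is not given, here or for later counts of this kind, so no excess can be read from them. The median member difference was -0.02, against 0.01 over all probe sets tested. The groups did not overlap for 5 of 26 member probe sets, against 21.9% of all.

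Among the survival genes, Bcl2 1437122_at had levels of 7.07, 6.69 and 7.19 in Cre+ LSEC, against 6.06, 6.39 and 6.16 in control LSEC. Every Cre+ sample lay above every control sample. The difference was 0.78 (SE 0.14, 95% interval 0.48 to 1.08), a 1.72-fold higher level, with a limma adjusted p of 0.00893. The control mean of 6.20 is below the limit of 6.38, so the fold rests on a dim level. Bcl2 1457687_at had 8.41, 8.46 and 8.83 in Cre+ and 7.98, 8.09 and 8.21 in control LSEC, again without overlap, but its difference of 0.48 had an adjusted p of 0.0706 in limma. The other Bcl2 probe sets gave differences of 0.30 for 1422938_at (limma adjusted p 0.187), 0.07 for 1440770_at and -0.04 for 1443837_x_at. The LSEC means of 1440770_at, 4.11 in Cre+ and 4.04 in control, are below the limit of 6.38, so its difference says little. Bcl2 1443837_x_at, with an interval of -0.32 to 0.23, did not share the rise of 1437122_at. With only the 6 LSEC arrays in the fit, the limma adjusted p of Bcl2 1437122_at was 0.0873.

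Bcl2l1 and Mcl1, the other survival genes, did not pass on any probe set in LSEC. Bcl2l1 1420888_at stood at 10.74, 10.99 and 10.81 in Cre+ and 11.16, 10.80 and 10.71 in control LSEC, which overlap. Its interval for the difference ran from -0.32 to 0.24, and the 3 tested Bcl2l1 probe sets gave -0.09 to 0.14. Mcl1 1448503_at stood at 11.50, 11.38 and 11.48 in Cre+ and 11.46, 11.42 and 11.54 in control LSEC. Its interval for the difference ran from -0.22 to 0.19, and the 6 Mcl1 probe sets gave -0.08 to 0.03, all with overlapping groups. The Bcl2l1 probe sets 1420887_a_at and 1426191_a_at gave -0.09 and 0.14, and the Mcl1 probe sets 1437527_x_at, 1416880_at, 1456243_x_at, 1416881_at and 1456381_x_at gave 0.01, -0.08, 0.03, -0.03 and -0.05.

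Bcl2l11, whose product binds every survival protein of the family, had lower LSEC means in Cre+ on all 5 probe sets. Bcl2l11 1435448_at had 8.30, 8.18 and 8.11 in Cre+ and 8.73, 8.56 and 8.75 in control LSEC. The groups did not overlap, and the level fell by 0.48 on the log2 scale (SE 0.11, 1.39-fold lower, limma adjusted p 0.0305). This call was lost without Cre+ replicate 2 (limma adjusted p 0.0734), without Cre+ replicate 3 (0.102), without control replicate 1 (0.0884) and without control replicate 3 (0.0891), with the difference between -0.54 and -0.43 throughout the fits that left out 1 array. Bcl2l11 1456005_a_at had 8.74, 8.53 and 8.43 in Cre+ and 9.01, 8.97 and 9.07 in control LSEC, without overlap (difference -0.45, limma adjusted p 0.0719). Bcl2l11 1435449_at had 7.80, 7.21 and 7.52 in Cre+ and 7.89, 7.95 and 8.29 in control LSEC, and Cre+ replicate 1 lay closest to the control samples (difference -0.53, limma adjusted p 0.0755). The remaining 2 probe sets overlapped between genotypes, with differences of -0.20 for 1456006_at and -0.34 for 1426334_a_at.

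The other BH3-only genes did not pass in LSEC. Bbc3, a p53 and FoxO target, stood at 7.78, 7.75 and 7.76 in Cre+ and 7.92, 7.58 and 7.55 in control LSEC, a difference of 0.08 with an interval of -0.27 to 0.43. Pmaip1, a p53 target whose product binds Mcl1, had 6.69, 7.19 and 6.18 in Cre+ and 7.04, 6.49 and 7.27 in control LSEC, widely spread in both (difference -0.24). Bmf, a BH3-only gene tied to loss of cell attachment, was dim at 6.19, 6.03 and 6.06 in Cre+ and 6.68, 6.45 and 5.59 in control LSEC. Bid, which links death receptors to mitochondria, differed by 0.06 for 1417045_at and 0.02 for 1448560_at, and the pore former Bak1 by 0.05 for 1418991_at and 0.24 for 1425716_s_at. The LSEC, pan-endothelial, mast cell and neutrophil marker levels and the Ednrb level given above moved with the same genotype groups, and their part in the Bcl2 and Bcl2l11 differences was not tested.

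**Figure D1:**
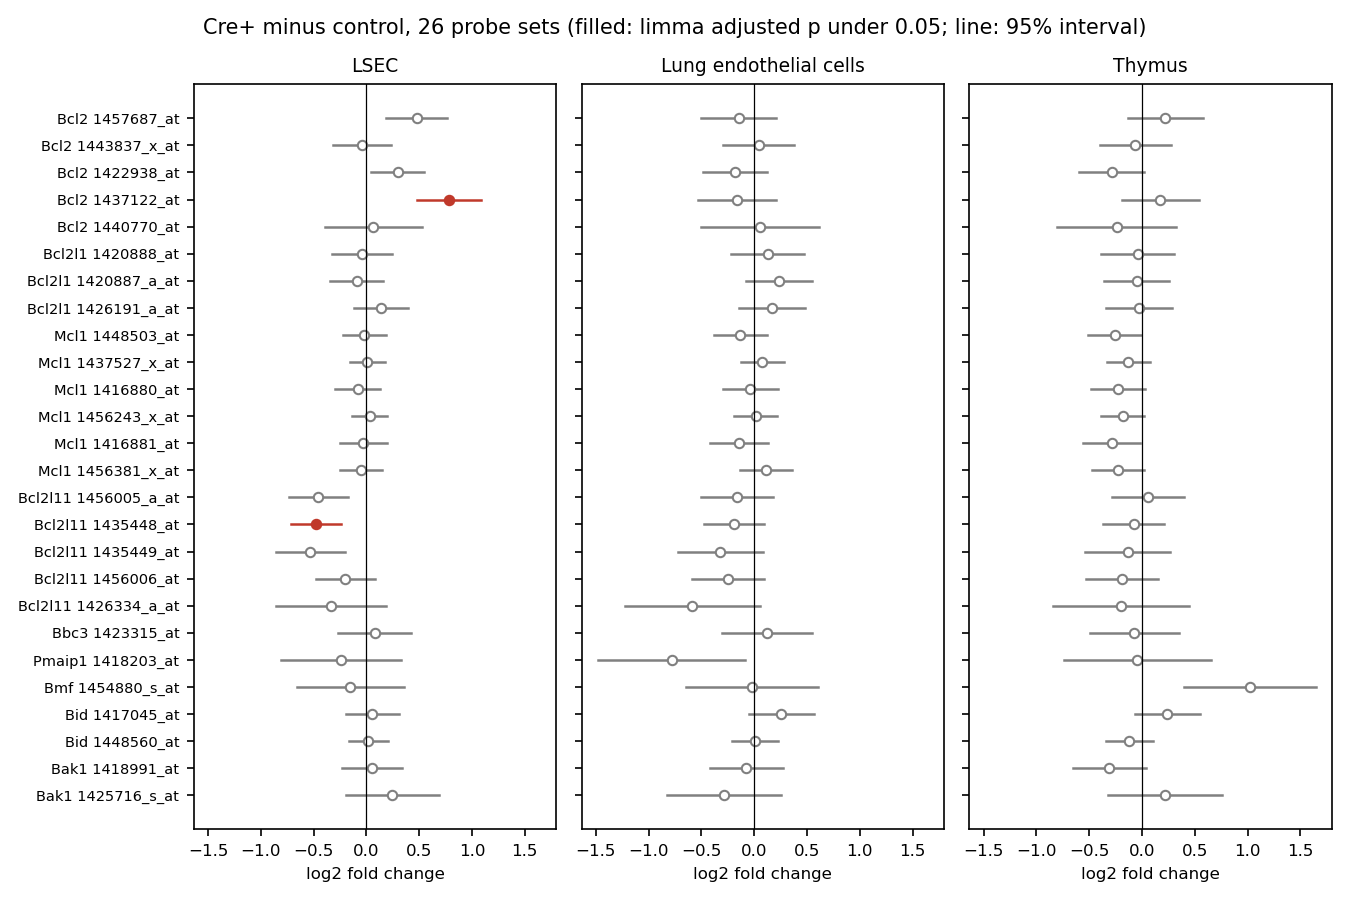
Difference in log2 level, Cre+ minus control, with 95% interval for the 26 tested member probe sets (rows) in LSEC, lung endothelial cells and thymus (panels), filled where the limma adjusted p is under 0.05. Filled points are Bcl2 1437122_at at 0.78 and Bcl2l11 1435448_at at -0.48, both in LSEC.

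**Figure D2:**
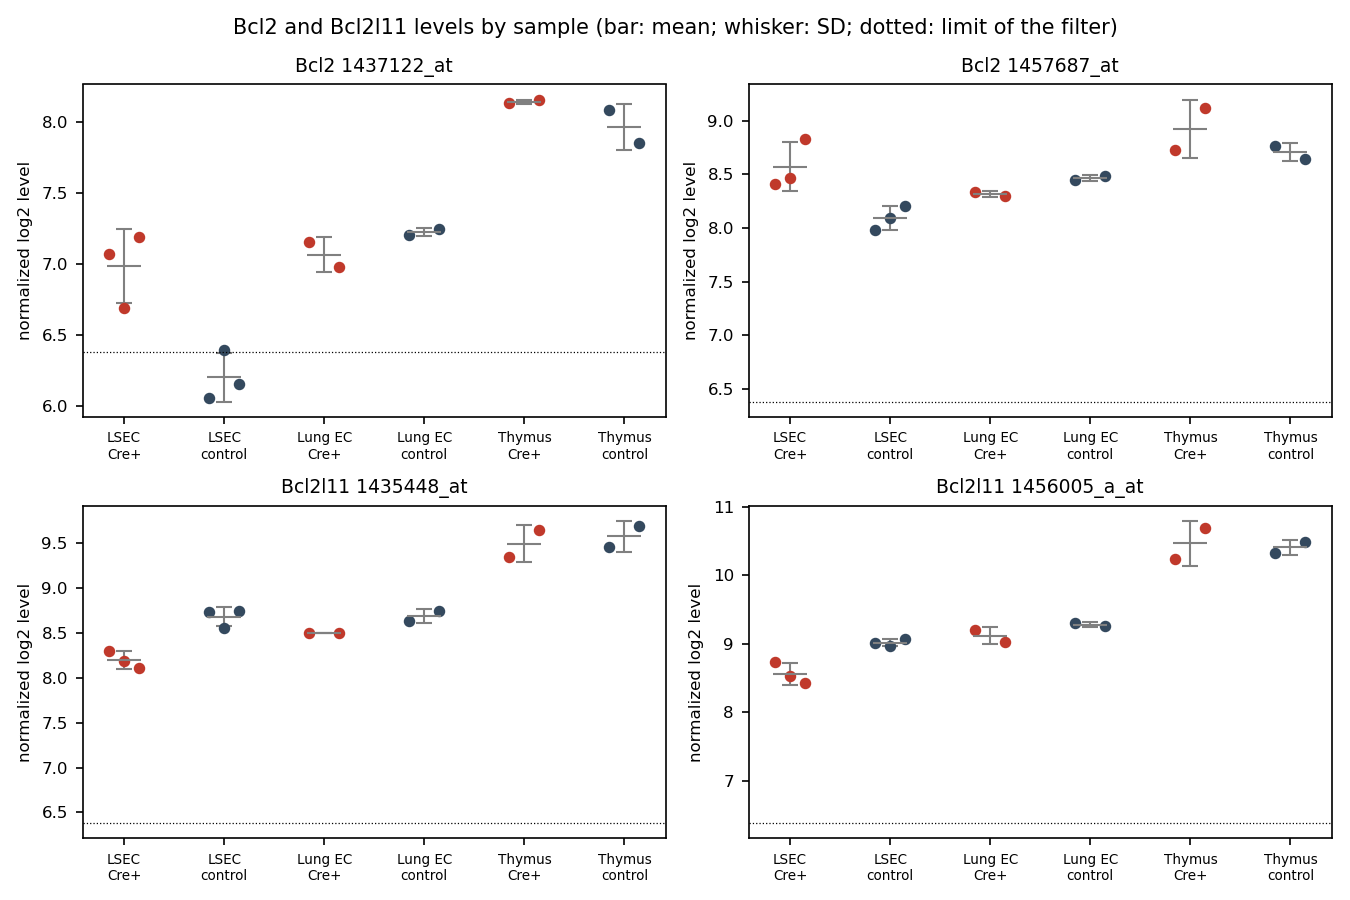
Normalized log2 level (vertical axis) of Bcl2 and Bcl2l11 probe sets in each sample (points) by tissue and genotype. Mean bars, SD whiskers and a dotted line at 6.38 are drawn. Shown are Bcl2 1437122_at and 1457687_at and Bcl2l11 1435448_at and 1456005_a_at, chosen for the smallest LSEC p-values of their gene in limma. The other Bcl2 probe sets, not drawn, had overlapping groups in LSEC. For Bcl2 1437122_at the 3 Cre+ LSEC points lie at 6.69 to 7.19 and the 3 control points at 6.06 to 6.39.

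In lung endothelial cells no member probe set passed in limma, against 0.0195% of all probe sets tested, and 1 had an unadjusted p under 0.05. That was Pmaip1, at 7.20 and 7.13 in Cre+ and 8.07 and 7.82 in control lung samples. Both Cre+ samples lay below both controls, but the difference of -0.78 (95% interval -1.48 to -0.09) had a limma adjusted p of 1. Groups of 2 samples did not overlap for 18 of 26 member probe sets, 6 higher and 12 lower in Cre+, where 39.1% of all probe sets did not overlap, 20.3% higher and 18.8% lower. Of the lower ones Bcl2l11 gave 5, Bcl2 3 and Mcl1 2, and of the higher ones Bcl2l1 gave 3 and Mcl1 2. Probe sets of 1 gene are not independent of each other, so no excess of members can be read from this count. All 5 Bcl2l11 probe sets were among those with lower Cre+ values, with differences between -0.59 and -0.16 that did not pass. Bcl2l11 1435448_at, for example, had 8.50 and 8.50 in Cre+ and 8.64 and 8.74 in control lung samples. Bcl2 1437122_at had 7.15 and 6.98 in Cre+ and 7.21 and 7.25 in control lung samples, a difference of -0.16 with an interval of -0.53 to 0.21. The 3 Bcl2l1 probe sets gave 0.13 to 0.24 with higher Cre+ values in each. Pan-endothelial markers averaged 9.20 to 9.32 in Cre+ and 9.56 to 9.88 in control lung samples. Lung endothelium markers averaged 8.56 to 8.64 in Cre+ and 8.19 to 8.21 in control lung samples. Most of this came from Hpgd, with means of 8.45 in Cre+ and 6.99 in control, and Ednrb, with 9.58 and 8.86. Foxf1, Tmem100 and Tbx3 were higher by less, and Car4 was lower, at 7.98 in Cre+ and 8.23 in control. Kupffer cell and macrophage markers averaged 8.70 to 8.86 in Cre+ and 8.28 to 8.38 in control lung samples. The part of these marker lists in the member values was not tested.

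In thymus no member probe set passed in limma either, against 0.328% of all probe sets tested, and 3 had an unadjusted p under 0.05. The largest member difference of any genotype comparison was that of Bmf 1454880_s_at, with 9.40 and 9.62 in Cre+ and 8.33 and 8.65 in control thymus. Both Cre+ samples lay above both controls, and the mean was 2.03-fold higher (difference 1.02, interval 0.40 to 1.64), with an unadjusted p of 0.0042 and an adjusted p of 0.195 in limma. Without control LSEC replicate 3, an array that is in neither thymus group but shares the normalization and the estimate of the spread, the limma adjusted p of Bmf was 0.0341 at a difference of 1.02. That array had 5.59 for Bmf, against 6.68 and 6.45 in the other control LSEC.

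Mcl1, needed for thymocyte survival, had lower Cre+ means on all 6 probe sets in thymus, with differences between -0.29 and -0.13 that did not pass. Mcl1 1416881_at had 10.02 and 10.19 in Cre+ and 10.27 and 10.51 in control thymus, and 1448503_at had 11.44 and 11.70 in Cre+ and 11.76 and 11.90 in control thymus. Their unadjusted p-values in limma were 0.0400 and 0.0447. These probe sets read 1 gene and are not independent of each other. Bcl2l11 in thymus gave differences between -0.20 and 0.06, with overlapping groups on all 5 probe sets. Bcl2 1437122_at had 8.13 and 8.16 in Cre+ and 8.09 and 7.86 in control thymus, a difference of 0.17 with an interval of -0.19 to 0.54. Groups did not overlap for 10 of 26 member probe sets, 3 higher and 7 lower in Cre+, where 41.8% of all probe sets did not overlap, 20.6% higher and 21.3% lower. Fibroblast markers averaged 8.89 to 8.94 in Cre+ and 8.27 to 8.38 in control thymus, and their part in these values was not tested.

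**Figure D3:**
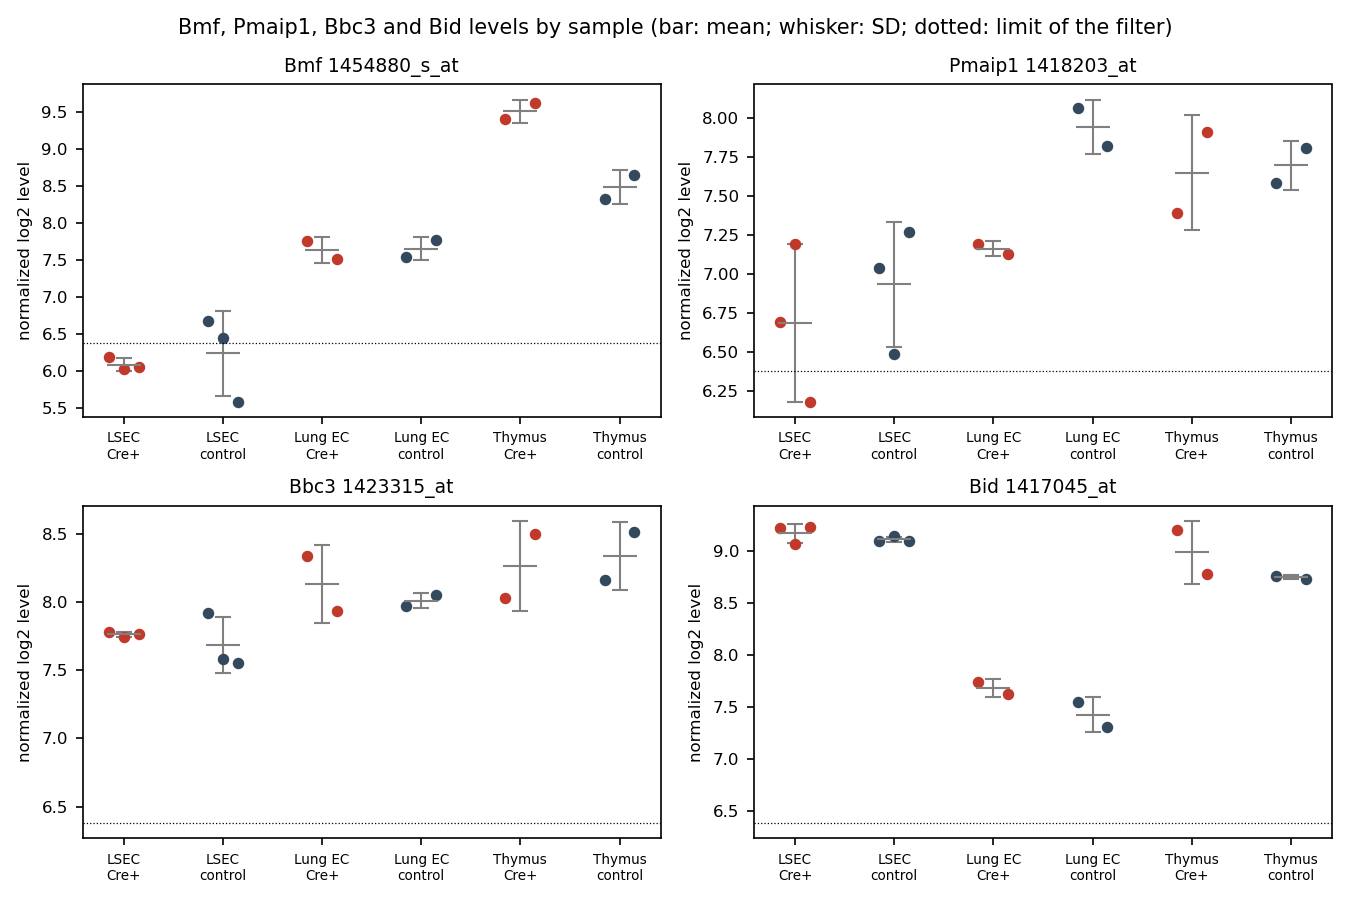
Normalized log2 level (vertical axis) of the BH3-only genes Bmf, Pmaip1, Bbc3 and Bid in each sample (points) by tissue and genotype, with mean bars and SD whiskers and a dotted line at 6.38. Bmf 1454880_s_at lies at 9.40 and 9.62 in Cre+ thymus and at 8.33 and 8.65 in control thymus.

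The genotype differences were then compared between tissues, since a call in 1 tissue alone does not show a difference between tissues. No member probe set passed for LSEC minus lung (0.256% of all tested), LSEC minus thymus (1.17%) or lung minus thymus (0.026%), with 3, 5 and 1 member probe sets at an unadjusted p under 0.05 in limma. The Bcl2 1437122_at difference was larger in LSEC than in lung by 0.94 (interval 0.47 to 1.42, limma adjusted p 0.126) and larger than in thymus by 0.61 (interval 0.13 to 1.08, limma adjusted p 0.216). With array weights the first of these had a limma adjusted p of 0.0472, and without Cre+ LSEC replicate 2 one of 0.0408. Bmf differed by -1.17 for LSEC minus thymus (limma adjusted p 0.163, and 0.0137 without control LSEC replicate 3) and by -1.04 for lung minus thymus (limma adjusted p 0.677). For Bcl2l11 1435448_at the LSEC minus thymus value was -0.40 (limma adjusted p 0.299).

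Between the control samples of the 3 tissues, most member probe sets differed. For LSEC minus lung 17 of 26 passed, 10 higher and 7 lower in LSEC, against 39.7% of all probe sets tested, 21.5% higher and 18.2% lower. For LSEC minus thymus 23 passed, 5 higher and 18 lower in LSEC, against 62.3% of all, 31.8% higher and 30.5% lower. For lung minus thymus 18 passed, 2 higher and 16 lower in lung, against 57.9% of all, 28% higher and 29.9% lower. Within each comparison, the passing probe sets of any 1 member all pointed the same way. Most of the calls below thymus came from the members with many probe sets. Bcl2, Mcl1 and Bcl2l11 gave 5 each for LSEC minus thymus, and 4, 6 and 4 for lung minus thymus. Probe sets of 1 gene are not independent, so no excess of members can be read from these counts. Counts with the brightest probe set per gene are given in the last section.

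Bcl2 was highest in thymus, with 5 of 5 probe sets lower in LSEC and 4 of 5 lower in lung than in thymus. Control levels of 1437122_at were 6.06, 6.39 and 6.16 in LSEC, 7.21 and 7.25 in lung and 8.09 and 7.86 in thymus, and each step passed. Bcl2 1440770_at was at 3.85 to 4.38 in LSEC and 4.61 and 4.79 in lung, all below the limit of 6.38, against 8.72 and 8.81 in thymus, and its LSEC minus lung call on these dim levels was lost with no filter, with median centring and without any 1 of 9 arrays (limma adjusted p 0.0546 to 0.201). Bcl2 1457687_at gave a flatter order, with means of 8.09 in LSEC, 8.47 in lung and 8.70 in thymus, and only LSEC and thymus differed. Its LSEC minus lung difference (limma adjusted p 0.0647) passed with median centring, the values as deposited, trend and robust on, array weights and only the arrays compared. It also passed without Cre+ LSEC replicate 3 or either Cre+ thymus sample (limma adjusted p 0.0271 to 0.0445 over these fits).

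Bcl2l1 was higher in LSEC. All 3 tested probe sets were higher in LSEC than in lung, by 0.58 to 0.91, and than in thymus, by 0.38 to 0.74, and none passed between lung and thymus. Control levels of 1420888_at were 11.16, 10.80 and 10.71 in LSEC, 10.08 and 10.04 in lung and 10.28 and 10.03 in thymus. For 1420887_a_at the LSEC minus thymus difference was 0.19 without control thymus replicate 2 (limma adjusted p 0.293) and 0.32 without control LSEC replicate 1 (0.0735) or with the values as deposited (0.0741). Mcl1 was lower in lung, by 0.40 to 0.85 below LSEC on the 5 passing probe sets and with all 6 below thymus. Of these, 1416881_at lost its lung minus thymus call with median centring (difference -0.18, limma adjusted p 0.232), with the values as deposited (0.0565), with no filter (0.0685), with only the arrays compared (0.0617), and without Cre+ LSEC replicate 3, control LSEC replicate 2, either control lung sample or control thymus replicate 2 (0.0520 to 0.277). Its LSEC minus lung call was lost without control LSEC replicate 3 or either control lung sample (limma adjusted p 0.0509 to 0.0968). Between LSEC and thymus, 5 of 6 Mcl1 probe sets were lower in LSEC, by at most 0.47, but with median centring none of these 5 passed and 1416881_at was higher in LSEC, so the LSEC and thymus levels of Mcl1 have no settled order.

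Bcl2l11 was higher in thymus, with 5 of 5 probe sets lower in LSEC, by 0.90 to 1.39, and 4 of 5 lower in lung. On no probe set of Bcl2l11 did LSEC minus lung pass, though 1435449_at (-0.38, limma adjusted p 0.0946) passed with the values as deposited, with array weights and without control LSEC replicate 3 (0.0388). Bcl2l11 1426334_a_at was lost for LSEC minus thymus without control thymus replicate 2 (limma adjusted p 0.0943). Control levels of 1435448_at were 8.73, 8.56 and 8.75 in LSEC, 8.64 and 8.74 in lung and 9.46 and 9.70 in thymus. Bmf went up in steps over the tissues, with control means of 6.24 in LSEC, which is under the limit of 6.38, 7.65 in lung and 8.49 in thymus, and each step passed, the lung to thymus step not without control lung replicate 1 (limma adjusted p 0.124), control lung replicate 2 (0.0510) or control thymus replicate 2 (0.143). Bbc3 was lower in LSEC than in thymus by 0.65 (limma adjusted p 0.0898 without control thymus replicate 2), and its lung level did not pass against either. Pmaip1 was lower in LSEC than in lung by 1.01 and than in thymus by 0.76, and lung and thymus did not differ beyond their spread. The LSEC minus lung call of Pmaip1 was lost without control LSEC replicate 2 and without either control lung sample (limma adjusted p 0.0518 to 0.113), and the LSEC minus thymus call without control LSEC replicate 1 or 2 and without either control thymus sample (0.0543 to 0.175).

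Bid and Bak1 set the lung samples apart. Bid 1417045_at had control levels of 9.09, 9.14 and 9.10 in LSEC, 7.54 and 7.30 in lung and 8.76 and 8.73 in thymus, and was 3.22-fold higher in LSEC than in lung (difference 1.69, limma adjusted p 3.21e-06). Bid 1448560_at differed less, by 0.52 for LSEC minus lung, and lung minus thymus did not pass on it. Both Bid probe sets were higher in LSEC than in thymus, by 0.36 and 0.37, but not with the values as deposited (limma adjusted p 0.104 and 0.106), and 1417045_at also not without control LSEC replicate 2 (0.0614), control thymus replicate 1 (0.0854) or control thymus replicate 2 (0.111). Bak1 1425716_s_at had 6.25, 6.66 and 6.75 in LSEC, 7.68 and 7.84 in lung and 6.77 and 6.47 in thymus. It was higher in lung than in the other tissues, as was 1418991_at, and LSEC minus thymus passed on neither. The calls of 1418991_at were lost without 1 of several control arrays, LSEC minus lung without LSEC replicate 2 or 3 or either lung sample (limma adjusted p 0.0528 to 0.151), and lung minus thymus without lung replicate 1 or either thymus sample (0.0657 to 0.117). The lung samples' epithelium and fibroblast markers, given above, moved with these tissue differences, where control LSEC had 6.66 to 6.91 and 6.98 to 7.84 for these lists. Their part in the tissue differences was not tested.

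**Figure D4:**
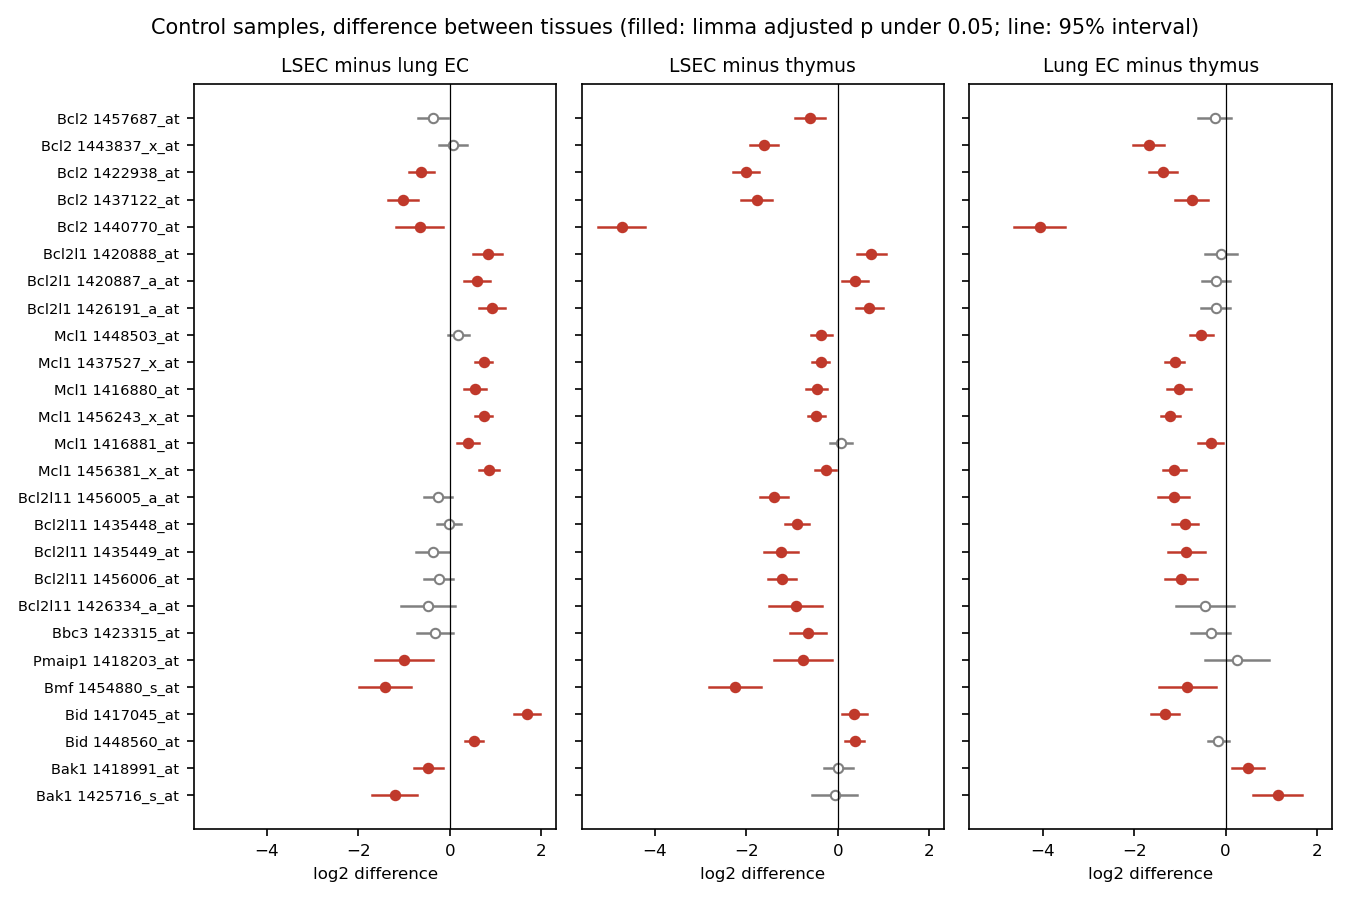
Difference in log2 level with 95% interval between the control samples of 2 tissues (panels) for the 26 tested member probe sets (rows), filled where the limma adjusted p is under 0.05. Bcl2 and Bcl2l11 lie below 0 against thymus, while the Bcl2l1 probe sets lie above 0 for LSEC minus lung and LSEC minus thymus.

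Genes around the family were read from 6 lists, with each gene taken at its brightest probe set. Of 58 listed genes, 50 were annotated and 48 tested. In LSEC none rose and 2 of 48 fell, near the 4.28% of all probe sets that passed, 2.14% lower, so the count shows nothing particular to these lists. Both were on the p53 target list. Sesn1, a stress-induced regulator of TORC1 and a p53 and FoxO target, averaged 8.17 in Cre+ and 8.79 in control LSEC (difference -0.62, limma adjusted p 0.0261). Trp53inp1, a p53 target that promotes cell death, averaged 9.87 in Cre+ and 10.48 in control LSEC (difference -0.61, limma adjusted p 0.0230). The 11 tested genes of that list had a median LSEC difference of -0.24, against 0.01 over all probe sets tested, and medians of 0.06 in lung and 0.20 in thymus. The LSEC medians of the other lists lay between -0.02 and 0.14. Without Cre+ LSEC replicate 1, control replicate 1 or control replicate 2, none of the 48 passed in LSEC, and without Cre+ replicate 2 or Cre+ replicate 3, 1 passed. The other lists had no passing gene in LSEC, where 10 of the 48 had an unadjusted p under 0.05 in limma. They cover other survival proteins (2 tested), other BH3 and Bcl2-like genes (8), the apoptosome and caspases (13), the death receptor pathway (10) and Mcl1 turnover (4). None of the 48 passed in lung or thymus in limma, where 2 and 9 had an unadjusted p under 0.05. Sesn1 had a difference of -0.77 in thymus (limma adjusted p 0.0974) and of -0.01 in lung. With only the 6 LSEC arrays in the fit, no list gene passed in LSEC.

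For each member, the genes with the most similar level over the 14 arrays were taken from 14290 genes by Pearson's r, as a description, since arrays of 1 tissue lie close together. Bcl2l11 1456005_a_at was most like Stk24 (r 0.984) and Usp48 (r 0.983), and Bid 1417045_at most like Rapgef3 (r 0.988) and Rmc1 (r 0.977). The values were 0.979 and 0.977 for Bcl2l1 with Vbp1 and Ciao2b, 0.978 and 0.968 for Bmf with Wbp1 and Ppp2r5d, and 0.978 and 0.952 for Bak1 with Rrp1b and Sumo3. Mcl1 came closest to Pla2g2d (r 0.949) and Mbp (r 0.928), Bbc3 to Setdb2 (r 0.917) and Camkv (r 0.908), Pmaip1 to Hdgfl3 (r 0.909) and Mark1 (r 0.902), and Bcl2 1457687_at to Zfp160 (r 0.894) and Dynll2 (r 0.884).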

How the data were processed

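Total RNA was extracted, transcribed into biotin-labelled cRNA and hybridised, per the labels' protocols. The deposited values, 1 per probe set and array, were read as log2, a base inferred from their range of 0 to 13.8. How the authors summarized and normalized them is not given in the sources used here. Array medians spread over 0.282, above the limit of 0.2, so arrays were quantile normalized. Control probe sets (64) were dropped, leaving 45037. Genes were named from the array's annotation table, which gave 1 symbol to 34945 probe sets. Probe sets with a highest tissue mean of at least 6.38, the 40th percentile of all means, were tested. One model of 6 group means over all 14 arrays was fitted with limma 3.58.1 in R 4.3.3 (lmFit, eBayes, 8 residual degrees of freedom), two-sided, with Benjamini-Hochberg adjustment within each contrast and a threshold of 0.05. The test was checked on simulated data. The members and lists were chosen with earlier results of these data known. Named were the member probe sets, in lung and thymus partly by the range per gene or by figure, list genes that passed, the FoxO genes, and for each member the most similar genes. In LSEC same-numbered replicates did not deviate together (r -0.19 to -0.05), and no block entered the model. In lung (r -0.20) and thymus (r 0.05) the check cannot decide this, because the deviations of 2 samples in a group mirror each other. For arrays, their number limits the precision.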

Additional observations from a re-analysis of the deposited data

How the results depend on the processing

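Bcl2 1437122_at in LSEC passed in 20 of 23 alternatives (adjusted p 0.00289 to 0.0873 in limma) and Bcl2l11 1435448_at in 14 of 23 (0.0115 to 0.102). Of 26 member probe sets, 2 passed in LSEC, against 1 with the values as deposited, 1 with no filter, 0 for the brightest probe set per gene, 5 with trend and robust on, 0 with only the arrays compared, and 1 to 4 without 1 array. List genes in LSEC numbered 2, against 0 with no filter, 1 with array weights, 0 with only the arrays compared and 0 to 3 without 1 array; in thymus, 0 against 1 with trend and robust on. Without 1 array, 0 to 1 member probe sets passed in thymus, 0 to 1 for LSEC minus lung (1 with array weights) and 0 to 1 for LSEC minus thymus. In control samples the brightest probe set per gene gave 5, 8 and 5 passing of 9, and leaving out 1 array gave 13 to 18 for LSEC minus lung, 16 to 23 for LSEC minus thymus and 15 to 18 for lung minus thymus. The replicate numbers were not found to pair the samples. In lung and thymus the check cannot decide this, because the deviations of 2 samples in a group mirror each other. With a replicate block, 0 member probe sets and 0 list genes passed in LSEC, and with the lung numbers crossed, chosen after seeing the data, 0 and 1. Over all probe sets, 1318 passed in LSEC (405 to 1705 over the alternatives), 6 in lung (0 to 47) and 101 in thymus (6 to 263). With median centring, Mcl1 1448503_at for LSEC minus thymus was 0.0068 (adjusted p 0.963), against -0.36; there the median of all probe sets was 0.11, against 0.03, and -0.12 as deposited. Causes were not tested. Of 1821 genotype values of members under alternatives, 1747 kept direction and side of the threshold, 10 newly passed, 12 lost the call and 52 changed sign without passing in either fit. Groups of 2 or 3 arrays limit what could be detected.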
